A study of Mus musculus with 6 samples.

Results

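Bile acid synthesis and transport was examined through 10 genes of the liver in carcinogen-induced liver tumors of mice with and without the orphan nuclear receptor Nr2e3. The genes were chosen by symbol, and all 10 were found among the 24063 genes of the count table. They are 4 cytochrome P450 enzymes (Cyp7a1, Cyp8b1, Cyp27a1 and Cyp7b1), the conjugation enzymes Slc27a5 and Baat, the transporters Slc10a1 and Abcb11, and the nuclear receptors Nr1h4 and Nr0b2. Tumor RNA of male C57BL/6 mice was sequenced in 3 WT and 3 Nr2e3-/- libraries. All mice, WT included, had received 25 mg per kg of the carcinogen diethylnitrosamine (DEN) by intraperitoneal injection at 15 days of age, and the tumors belong to the 24-week time point. The design of the knockout allele and the number of tumor nodules per library are not given in the sources used here. The study's methods give 3 mice per genotype, and p-values measure the spread between these libraries.

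Bile acids are made from cholesterol in hepatocytes. The classic route starts with Cyp7a1, its rate-limiting enzyme, and Cyp8b1 on this route leads to cholic acid, while the alternative (acidic) route starts with Cyp27a1 and continues through Cyp7b1. The products are joined to taurine or glycine by Slc27a5 and Baat, leave the hepatocyte into bile through the export pump Abcb11 (BSEP) and return from portal blood through the uptake transporter Slc10a1 (NTCP). Bile acids bind the receptor Nr1h4 (FXR), which induces the corepressor Nr0b2 (SHP), and Nr0b2 in turn restrains the transcription of Cyp7a1 and Cyp8b1.

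Total counts were between 25250090 and 28690279 per library in WT tumors and between 15376261 and 28336305 in Nr2e3-/- tumors. Nr2e3 itself had 0 counts in all 6 libraries, which allows at most 0.105 to 0.195 CPM (counts scaled to a common library size) by counting error alone. Its counts therefore cannot serve as a check of the labelled genotypes. Hepatocyte RNA dominated each library, with Alb at 8.02% to 13.4% of the counts, and 10 of 10 hepatocyte markers were tested with a median log2 fold change of 0.10. Nr2e3-/- replicate 1 stood nearer to the WT libraries (Spearman correlation 0.979 to 0.984 over genes) than Nr2e3-/- replicates 2 and 3 did (0.955 to 0.971), and without it 3022 of 13840 genes passed an adjusted p-value of 0.05, against 13 of 13572 with all libraries.

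All 10 genes passed the filter on low counts and were compared in a fit across 13572 genes with edgeR. Cyp7b1, the oxysterol 7-alpha-hydroxylase of the alternative route, showed the clearest difference and was 3.25-fold higher in Nr2e3-/- tumors. Cyp7a1 and Cyp8b1 of the classic route had lower means in Nr2e3-/- tumors, by 2.18-fold and 1.88-fold, with wide spread. In bulk tumor RNA, fewer cells of a type and less RNA per cell cannot be told apart. For the genes of conjugation, uptake and export the log2 fold change was between 0.02 and 0.23, within the spread between libraries. At an adjusted p-value under 0.05, 0 of the 10 genes were called, where 0.0958% of all genes tested were called. At an unadjusted p-value under 0.05 in edgeR, 1 of the 10 genes was higher and 0 were lower, against 11.8% and 9.72% of all genes tested. Of the 10 genes 1 had groups without overlap and was higher in Nr2e3-/- tumors, while among all genes 13.9% were higher and 12.9% lower without overlap. These shares of the 10 genes are no larger than those of all genes. The median log2 fold change was 0.09 over the 10 genes and 0.01 over all genes tested.

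**Figure D1:**
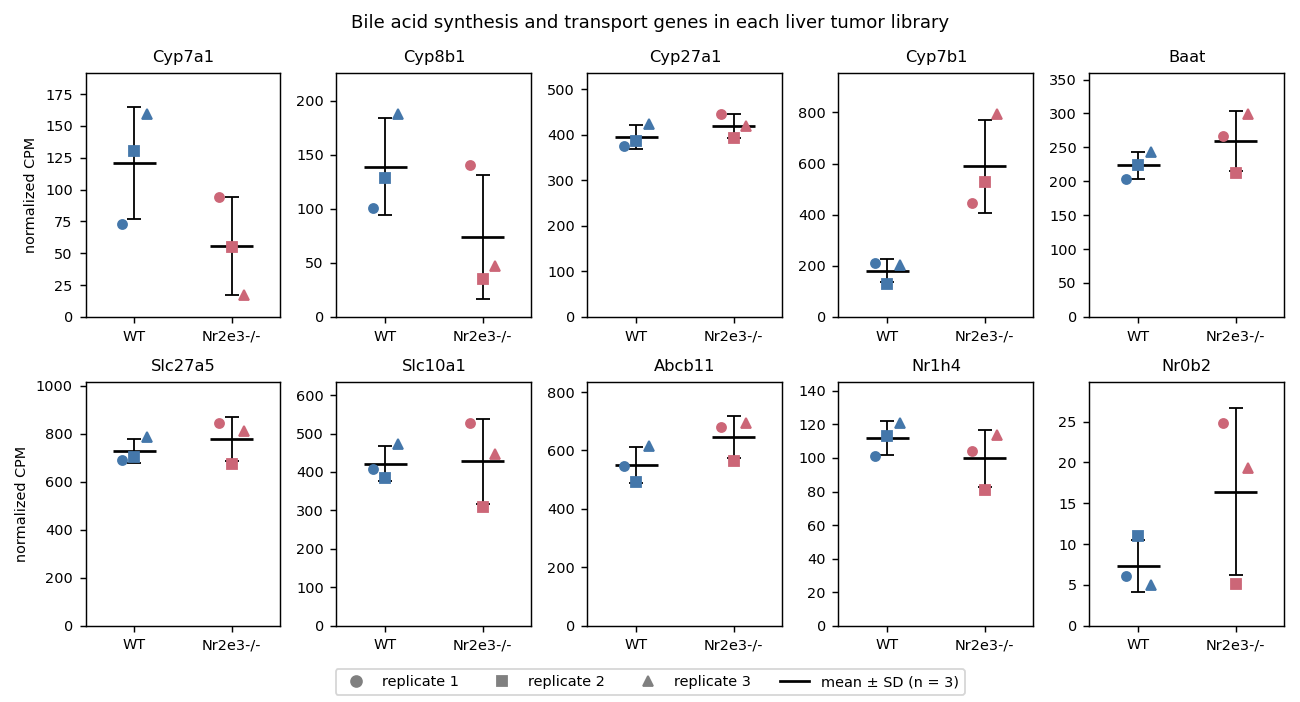
Normalized CPM (vertical axes, linear and starting at 0) of the 10 bile acid genes in WT (blue) and Nr2e3-/- (red) tumors, with 1 point per library, its shape giving the replicate number, and black lines for the mean and SD (n = 3). The 3 Nr2e3-/- points of Cyp7b1 lie between 444 and 794, above the WT points at 129 to 211, and the points of the other 9 genes overlap between the groups.

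In the alternative route, Cyp7b1 lies on chromosome 3 of GRCm38 (18071944 to 18243890, minus strand). It was measured at 211, 129 and 203 normalized CPM in WT replicates 1 to 3 and at 444, 527 and 794 in Nr2e3-/- replicates 1 to 3. All 3 Nr2e3-/- libraries were above all 3 WT libraries, including Nr2e3-/- replicate 1. The means were 181 ± 45.3 CPM (SD, n = 3) and 588 ± 183 (SD, n = 3). The log2 fold change was 1.70 with a standard error of 0.28, and the adjusted p-value from edgeR was 0.0912 (unadjusted p = 0.000414). DESeq2 (adjusted p = 7.46e-07) and limma-voom (adjusted p = 0.0130) called the gene, as did edgeR without Nr2e3-/- replicate 1 (log2 fold change 1.88, adjusted p = 0.00701) or without a filter on low counts (adjusted p = 0.0418). In the other 5 fits that left out 1 library, the log2 fold change was between 1.43 and 1.83 and the adjusted p-value between 0.124 and 0.325. Cyp27a1, the mitochondrial sterol 27-hydroxylase on chromosome 1 (74713148 to 74737897), had 375, 386 and 424 CPM in WT and 446, 392 and 420 CPM in Nr2e3-/- libraries. These groups overlapped, with a log2 fold change of 0.09 (95% interval -0.18 to 0.35). The first enzyme of this route therefore varied by less than the spread between libraries, and the next one did not overlap between genotypes.

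In the classic route, Cyp7a1 on chromosome 4 (6265612 to 6275632) had 72.9, 130.5 and 159.5 CPM in WT libraries and 94.4, 55.0 and 17.4 CPM in Nr2e3-/- libraries. Nr2e3-/- replicate 1 lay within the WT range, and replicates 2 and 3 lay below it. The log2 fold change was -1.12 with a standard error of 0.56 (edgeR, adjusted p = 0.287), and its 95% interval of -2.45 to 0.20 includes 0. Without Nr2e3-/- replicate 1 the log2 fold change was -1.72 (adjusted p = 0.0622 from edgeR), and without replicate 3 it was -0.69. Cyp8b1, the sterol 12-alpha-hydroxylase, is a gene of a single exon on chromosome 9 (121914356 to 121916305). It had 100.4, 129 and 188 CPM in WT libraries and 140, 35.3 and 46.9 CPM in Nr2e3-/- libraries, so again replicate 1 was within and replicates 2 and 3 below the WT range. The log2 fold change was -0.91 with a standard error of 0.52 (edgeR, adjusted p = 0.340). Without Nr2e3-/- replicate 1 it was -1.75 and passed the test (adjusted p = 0.0108 from edgeR). Limma-voom with quality weights, which counts libraries unequally, called both genes lower, with an adjusted p = 0.0375 for Cyp7a1 and 0.0380 for Cyp8b1, and DESeq2 called neither.

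The libraries with the least Cyp7a1 and Cyp8b1 also carried the most acute phase transcripts. Of 9 acute phase genes, 6 were higher at an unadjusted p-value under 0.05 in edgeR. Saa1, a serum amyloid protein induced in hepatocytes by inflammation and named after its values were seen, was at 19.9 to 49.3 CPM in WT libraries, at 138 CPM in Nr2e3-/- replicate 1 and at 1028 and 1090 CPM in replicates 2 and 3. Over the 9 genes the summed level was 2397 to 4589 CPM in WT libraries and 3167, 10161 and 8017 CPM in Nr2e3-/- replicates 1, 2 and 3. Hp made up the largest part of this sum, with 6225 and 4915 CPM in Nr2e3-/- replicates 2 and 3, and its groups overlapped. Lcn2 did not follow the order of the sum, with 487 CPM in WT replicate 2 and 260 CPM in Nr2e3-/- replicate 3. The part of the acute phase genes in the levels of the bile acid enzymes was not tested.

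Promoter sequences were taken from a table drawn from RefSeq (GRCm38.p6), in which 6 of the 10 genes and 49 of the 56 others were matched. The 250 bases before the gene start are shown for Cyp8b1, Cyp2c70 and Abcb11. Cyp8b1 and Cyp2c70 were taken because both enzymes sit at a branch of bile acid composition. Their levels stood apart in opposite directions in Nr2e3-/- replicates 2 and 3, although the groups of Cyp8b1 overlapped through Nr2e3-/- replicate 1. Abcb11 is a gene whose groups overlapped as well. The 3 stretches lie at chr9:121916306-121916555, chr19:40187287-40187536 and chr2:69342617-69342866, all on the minus strand. Each is written 5′ to 3′ in the direction of the gene. Capitals mark the nuclear receptor half-site AGGTCA and the HNF4-type motif CAAAGTCCA, searched on both strands.
Cyp8b1: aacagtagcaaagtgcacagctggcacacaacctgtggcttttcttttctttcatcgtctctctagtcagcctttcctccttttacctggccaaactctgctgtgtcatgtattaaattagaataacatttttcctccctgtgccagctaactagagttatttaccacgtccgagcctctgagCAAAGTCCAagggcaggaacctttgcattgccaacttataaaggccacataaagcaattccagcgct
Cyp2c70: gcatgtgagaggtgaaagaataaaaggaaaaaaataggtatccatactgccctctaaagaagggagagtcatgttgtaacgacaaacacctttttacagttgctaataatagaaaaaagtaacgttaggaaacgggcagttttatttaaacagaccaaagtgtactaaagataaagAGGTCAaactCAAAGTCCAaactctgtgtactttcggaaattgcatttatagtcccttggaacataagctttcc
Abcb11: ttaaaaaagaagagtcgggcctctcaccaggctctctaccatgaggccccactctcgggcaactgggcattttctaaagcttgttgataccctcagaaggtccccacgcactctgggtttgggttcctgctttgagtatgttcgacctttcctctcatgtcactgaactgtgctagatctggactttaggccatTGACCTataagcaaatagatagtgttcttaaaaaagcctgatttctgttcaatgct

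The HNF4-type motif starts 67 bases before the start of Cyp8b1 and 64 bases before that of Cyp2c70, and 0.384% of 32851 promoter windows of the same length hold it. All matched genes were searched, and the motif also starts 109 bases before Cyp3a11, whose groups overlapped, as those of Cyp8b1 did. It was absent from the windows of Cyp27a1, Slc10a1, Abcb11, Nr1h4 and Nr0b2. Cyp8b1 and Cyp2c70 were picked with their values known, so the share is no measure of enrichment. The half-site starts 74 bases before Cyp2c70, where it does not overlap the HNF4-type motif, and lies on the opposite strand 56 bases before Abcb11, and 14.0% of windows hold it. The letters TATAAA were searched too, are left in lower case and occur in 12.4% of windows. Hnf4a, the receptor for which the motif is named, was looked at after its values were seen and had 854, 805 and 786 CPM in WT and 904, 1152 and 1398 CPM in Nr2e3-/- libraries, a log2 fold change of 0.50 (edgeR, adjusted p = 0.174, and 0.0195 without Nr2e3-/- replicate 1). A match of letters is a description and not evidence of binding.

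The conjugation enzymes differed by less than the spread between libraries. Slc27a5, the bile acyl-CoA synthetase on chromosome 7 (12988346 to 12998192), had 692, 705 and 785.5 CPM in WT and 846.5, 674 and 812 CPM in Nr2e3-/- libraries, with a log2 fold change of 0.10 (95% interval -0.22 to 0.41). Baat, the amino acid transferase on chromosome 4 (49489416 to 49507915), had 203, 224 and 243 CPM in WT and 267, 212 and 299 CPM in Nr2e3-/- libraries, with a log2 fold change of 0.22 (95% interval -0.14 to 0.58). In both genes Nr2e3-/- replicate 2 was the lowest of its group and lay within or below the WT values.

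Uptake and export were also close between the genotypes. Slc10a1, on chromosome 12 (80953185 to 80968705), had 409, 384 and 473 CPM in WT and 528, 309 and 447 CPM in Nr2e3-/- libraries, so the Nr2e3-/- group held both the highest and the lowest library. Its log2 fold change was 0.02 with a 95% interval of -0.46 to 0.50, and its sign changed in 5 of 13 alternative fits. Abcb11, on chromosome 2 (69238282 to 69342616), had 547, 492 and 614 CPM in WT and 679, 563.5 and 695 CPM in Nr2e3-/- libraries, with a log2 fold change of 0.23 (95% interval -0.10 to 0.56). Its exons overlap those of the annotated genes Gm13613 and Gm13614 on the opposite strand, and the strand setting of the counting is not given in the sources used here.

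The receptor Nr1h4, on chromosome 10 (89454234 to 89533645), had 101, 113 and 121 CPM in WT and 104, 81.1 and 114 CPM in Nr2e3-/- libraries, with a log2 fold change of -0.16 (95% interval -0.52 to 0.19). Its target Nr0b2, on chromosome 4 (133553376 to 133556686), had the lowest mean CPM of the 10 genes in both genotypes. It was measured at 6.07, 11.0 and 5.03 CPM in WT and at 24.9, 5.05 and 19.4 CPM in Nr2e3-/- libraries, so replicates 1 and 3 were above all WT libraries and replicate 2 was at the level of the lowest of them. The log2 fold change was 1.15 with a standard error of 0.56 (edgeR, adjusted p = 0.282), and its 95% interval was -0.18 to 2.47. Without Nr2e3-/- replicate 1 it was 0.72 (adjusted p = 0.392 from edgeR), and without replicate 2 it was 1.59 (adjusted p = 0.138). Side by side, Nr2e3-/- replicate 1 had the highest Nr0b2 with Cyp7a1 and Cyp8b1 inside the WT range, replicate 2 had low Nr0b2 with the lowest Cyp8b1, and replicate 3 had high Nr0b2 with the lowest Cyp7a1 and low Cyp8b1.

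**Figure D2:**
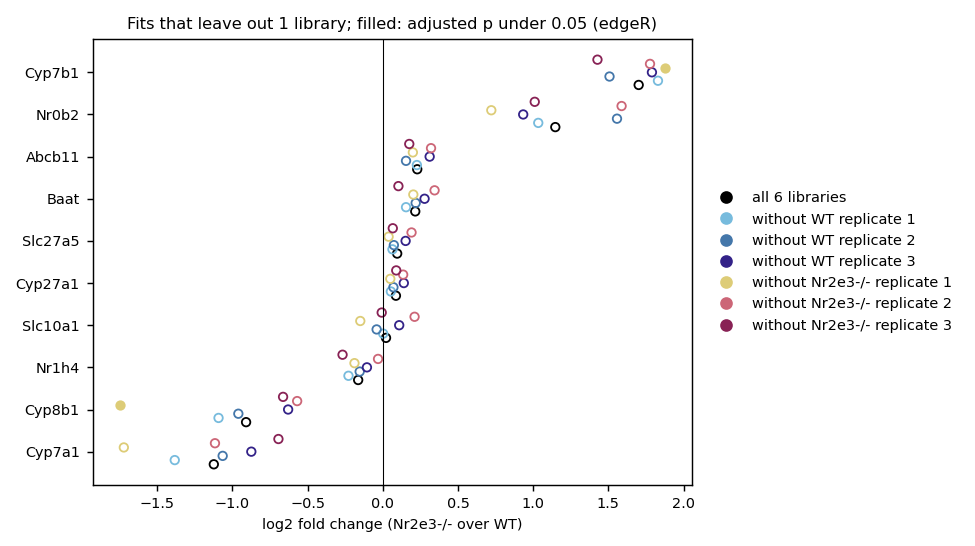
Log2 fold change of Nr2e3-/- over WT (horizontal axis) for each of the 10 genes, from edgeR fits with all 6 libraries (black) and without each library in turn (colors), filled where the adjusted p-value was under 0.05. Cyp7b1 stays between 1.43 and 1.88 in these fits, while Cyp8b1 reaches -1.75 without Nr2e3-/- replicate 1 and is at -0.57 without replicate 2.

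To compare levels between genes, CPM were divided by the kilobases of annotated exon (GENCODE M21, basic set). In WT tumors Slc27a5 was the highest of the 10 genes with 312 ± 21.7 CPM per kb (SD, n = 3), followed by Cyp27a1 with 209 ± 13.8 and Slc10a1 with 192 ± 20.7, whose ranges overlapped. Baat (115 ± 10.4), Abcb11 (107 ± 11.9), Cyp7b1 (83.5 ± 20.9), Cyp8b1 (71.3 ± 22.9) and Nr1h4 (48.5 ± 4.40) followed, each overlapping its neighbour in this order. Cyp7a1 (29.0 ± 10.6) and Nr0b2 (6.49 ± 2.80) were lowest and overlapped neither each other nor Nr1h4. In Nr2e3-/- tumors Cyp7b1 had 272 ± 84.5 CPM per kb, which put its mean second only to that of Slc27a5 (334 ± 39.3), and Cyp7a1 had 13.3 ± 9.24, a mean below that of Nr0b2 at 14.5 ± 9.05.

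The balance between genes was followed by count ratios within a library, which need no normalization between libraries. A permutation of 3 against 3 libraries cannot give a p-value below 0.1, and p-values were adjusted over 3 ratios. The log2 ratio of Cyp7a1 to Cyp27a1, the first enzymes of the 2 routes, averaged -1.78 ± 0.51 over WT and -3.22 ± 1.23 over Nr2e3-/- libraries (SD, n = 3). The difference of -1.45 gave an exact two-sided permutation p of 0.2 (adjusted p = 0.45), and it was -0.76 without Nr2e3-/- replicate 3 and -1.94 without replicate 1. The log2 ratio of Cyp8b1 to Cyp7a1 was 0.23 ± 0.24 in WT and 0.46 ± 1.04 in Nr2e3-/- tumors (SD, n = 3, exact permutation p = 0.7, adjusted p = 0.7). Both enzymes were low in Nr2e3-/- replicates 2 and 3, but Cyp8b1 exceeded Cyp7a1 in replicate 3 (1.44) and was below it in replicate 2 (-0.64). The log2 ratio of Slc10a1 to Abcb11 was -0.39 ± 0.03 in WT and -0.62 ± 0.25 in Nr2e3-/- tumors (SD, n = 3, exact permutation p = 0.3, adjusted p = 0.45). It spanned -0.42 to -0.36 over the WT libraries and was lower in Nr2e3-/- replicates 2 (-0.87) and 3 (-0.64). The counts of Cyp7b1 per count of Cyp7a1, a ratio looked at only after the values were seen and not tested, were 2.89, 0.987 and 1.27 in WT libraries and 4.70, 9.58 and 45.8 in Nr2e3-/- replicates 1, 2 and 3.

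**Figure D3:**
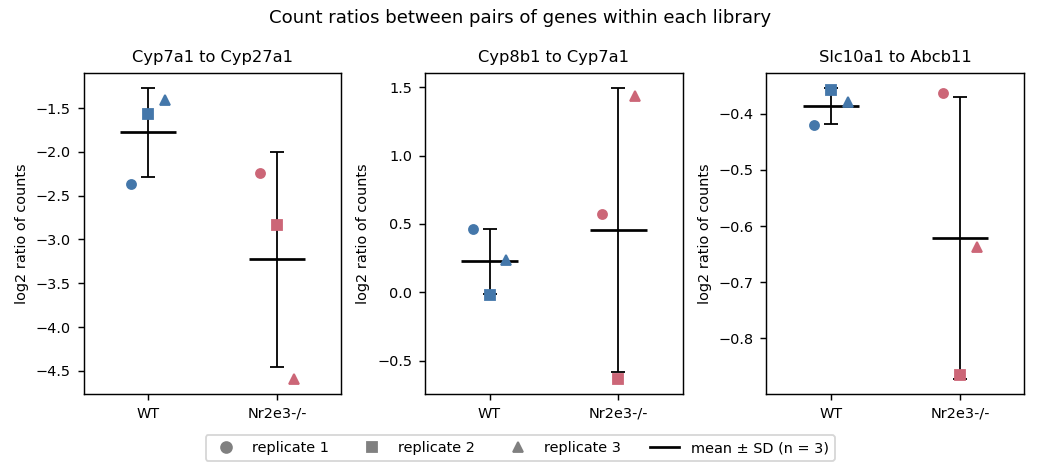
Log2 ratio of counts (vertical axes) for 3 pairs of genes in each WT (blue) and Nr2e3-/- (red) library, with black lines for the mean and SD (n = 3). The ratio of Cyp7a1 to Cyp27a1 runs from -2.36 to -1.41 in WT and from -4.60 to -2.24 in Nr2e3-/- libraries, and the groups overlap in all 3 panels.

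Over the 6 libraries, the profiles of the 10 genes fell near to or far from each other. As a measure of likeness, log2 CPM were centred and scaled per gene and the Euclidean distance was taken over the 6 libraries, where 0 means equal shape and 4.47 is the largest possible value. Cyp27a1 and Slc27a5 were the closest pair (0.827), Cyp7a1 and Cyp8b1 lay at 1.41, and Cyp7a1 and Cyp7b1 were the farthest apart (4.26). Among all genes tested, the 5 closest to Cyp7a1 were Idua (0.230), Dennd1c (0.266), 6330408A02Rik (0.298), Lnx2 (0.304) and Vrk2 (0.329). The 5 closest to Slc10a1 were Ankrd33b (0.200), Nbr1 (0.233), Tcaim (0.280), Ak3 (0.301) and Ndufv3 (0.325). The measure ignores the size of the differences, as Lnx2 ranged only from 13.2 to 16.1 CPM where Cyp7a1 ranged from 17.4 to 159.5 CPM. The profiles share the libraries and their normalization, so the distances are a description.

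A wider list of 56 genes of bile acid synthesis, transport, regulation and detoxification was examined beside the 10 genes, and 52 of them were tested. In edgeR 9 of these were higher and 10 lower at an unadjusted p-value under 0.05 (19 in all), against 11.8% higher and 9.72% lower among all genes tested, and 0 passed an adjusted p-value of 0.05. The median log2 fold change was -0.14. The list was chosen with earlier results of these data known. Its shares beside those of all genes are therefore a description and no measure of enrichment. The 19 genes are 36.5% of the 52, where 21.5% of all genes tested reached this p-value in either direction. The count was 11 without WT replicate 3, 12 without Nr2e3-/- replicate 3 and 29 without Nr2e3-/- replicate 1, fits in which 13%, 12.2% and 37.7% of all genes tested did so. At an adjusted p-value under 0.05, DESeq2 called 6 of the 52 genes higher and 5 lower (8.07% of all genes in either direction), limma-voom 8 higher and 10 lower (17.4% of all genes), and edgeR without the filter 3 of 55 higher and 0 lower (0.372% of all genes). In the edgeR fit without Nr2e3-/- replicate 1, 19 of the 52 genes passed an adjusted p-value of 0.05, 7 of them higher and 12 lower, against 12.2% and 9.65% of all genes tested. In every edgeR fit that left out another library instead, 0 of the 52 genes passed it, against 0% to 0.131% of all genes tested. Among the edgeR fits that left out 1 library, the calls given below without Nr2e3-/- replicate 1 are therefore particular to that omission. Where DESeq2 or limma-voom called the same gene with all libraries, this is given beside it.

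**Figure D4:**
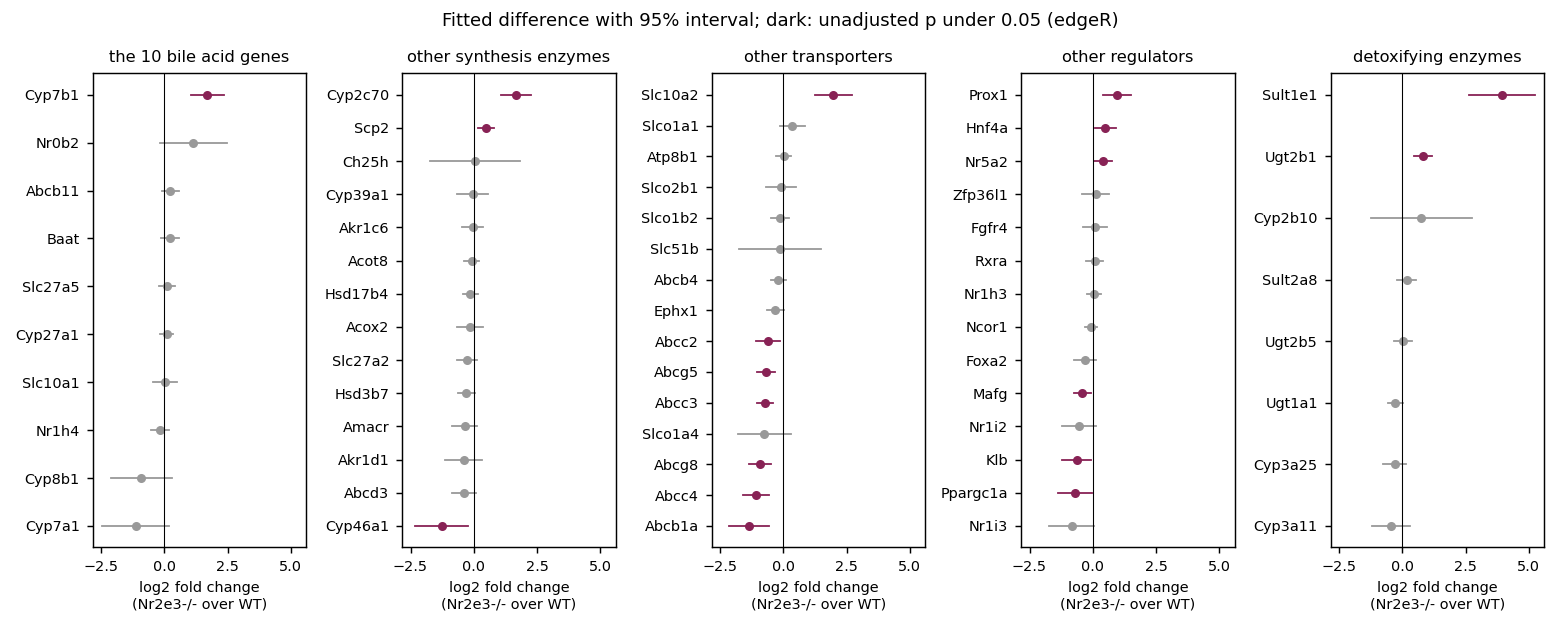
Log2 fold change of Nr2e3-/- over WT (horizontal axes) with its 95% interval for tested genes of each list (1 regulator is left out), from edgeR with 3 libraries per genotype, dark where the unadjusted p-value was under 0.05. Among the other transporters, 6 dark points lie below 0, from Abcc2 at -0.62 to Abcb1a at -1.35, and Slc10a2 lies above it at 1.96.

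Among 14 other synthesis enzymes, all tested, 2 were higher and 1 lower at an unadjusted p-value under 0.05, and the median log2 fold change was -0.14. Cyp2c70, the enzyme that makes muricholic acids in mice, was at 381, 285 and 318.5 CPM in WT replicates 1 to 3 and reached 681, 1286 and 1128 CPM in the Nr2e3-/- ones, without overlap. Its log2 fold change was 1.65 with a standard error of 0.25 (edgeR, adjusted p = 0.0844). DESeq2 and limma-voom called it, with an adjusted p = 6.31e-08 and 0.0106, and so did edgeR without Nr2e3-/- replicate 1 (adjusted p = 0.00193). Scp2, the peroxisomal thiolase and sterol carrier, had 1593 to 1904 CPM in WT and 2296 to 2645 CPM in Nr2e3-/- libraries (log2 fold change 0.48, unadjusted p = 0.00880 from edgeR). Cyp46a1, the cholesterol 24-hydroxylase known from brain, was low, with 2.61 to 4.47 CPM in WT and 0.854 to 2.58 CPM in Nr2e3-/- libraries (log2 fold change -1.28, unadjusted p = 0.0250 from edgeR). DESeq2 and limma-voom called Scp2, and limma-voom called Cyp46a1. Without Nr2e3-/- replicate 1 both passed in edgeR, with an adjusted p = 0.0498 for Scp2 and 0.0111 for Cyp46a1.

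Among 16 genes listed as other transporters, which include the epoxide hydrolase Ephx1, 15 were tested. Of these, 1 was higher and 6 were lower at an unadjusted p-value under 0.05. Slc10a2 (ASBT), the apical sodium-dependent bile acid transporter known from ileum and bile ducts, had 30.2, 23.7 and 21.1 CPM in WT and 54.7, 114 and 123 CPM in Nr2e3-/- libraries. The groups did not overlap, and the log2 fold change was 1.96 with a standard error of 0.31 (edgeR, adjusted p = 0.0887). Without Nr2e3-/- replicate 1 it was 2.26 (adjusted p = 0.00141 from edgeR), and DESeq2 (adjusted p = 2.02e-07) and limma-voom (adjusted p = 0.0106) called it too. The ileal marker Fabp6 had 0 counts in all libraries, and the bile duct keratins Krt7 and Krt19 were at 0.520 to 1.15 and 0.555 to 1.79 CPM over the 6 libraries. Of 10 bile duct markers 7 were tested and 2, Epcam and Spp1, were higher at an unadjusted p-value under 0.05, with a summed level of 73.9 to 148 CPM in WT and 88.0, 449 and 206 CPM in Nr2e3-/- replicates 1, 2 and 3, of which Spp1 made up the most. Their part in the level of Slc10a2 was not tested.

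The 6 lower transporters are ABC exporters. Abcc3 (MRP3), which moves bile acid conjugates toward the blood, had 398, 391 and 416 CPM in WT and 278, 239 and 210 CPM in Nr2e3-/- libraries, a log2 fold change of -0.73 with a standard error of 0.13 (edgeR, adjusted p = 0.0930). Abcg8, one part of the canalicular sterol exporter, had 153, 152 and 191 CPM in WT and 110, 81.6 and 71.6 CPM in Nr2e3-/- libraries, a log2 fold change of -0.91 with a standard error of 0.18 (edgeR, adjusted p = 0.0936). The other 4 were named after their values were seen. They are Abcg5, the partner of Abcg8 (log2 fold change -0.69), the canalicular pump Abcc2 or MRP2 (-0.62), the basolateral pump Abcc4 or MRP4 (-1.08) and the drug exporter Abcb1a (-1.35). In each of the 6 genes the 3 Nr2e3-/- libraries were below the 3 WT libraries, as in 12.9% of all genes tested. The 6 genes were singled out by their p-values in these libraries, so this is no separate result. The annotated exons of Abcg5 and Abcg8 overlap, so some of their reads may not be told apart. Without Nr2e3-/- replicate 1, all of the 6 exporters except Abcb1a (adjusted p = 0.0508) had an adjusted p-value under 0.05 in edgeR. With any other library left out, 0 of the 6 did. Also named after their values were seen, Abcb4, the phospholipid flippase, and the organic anion uptake carrier Slco1b2 had log2 fold changes of -0.20 and -0.12 with overlapping groups.

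**Figure D5:**
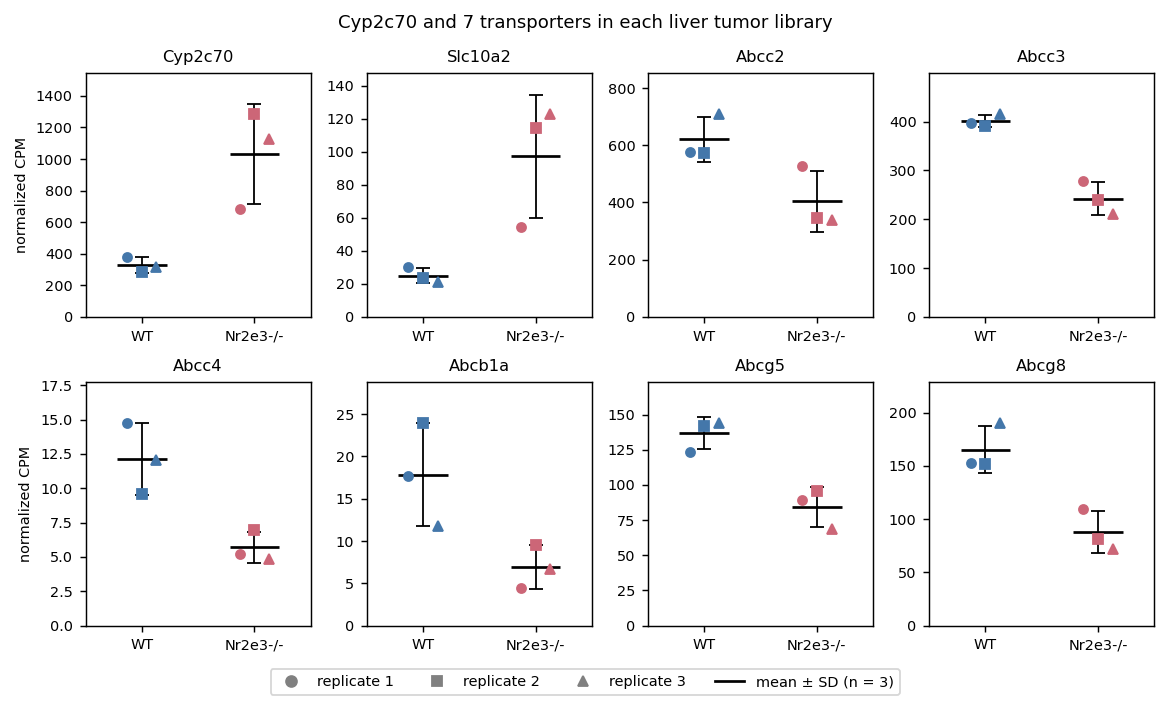
Normalized CPM (vertical axes, linear and starting at 0) of Cyp2c70 and 7 transporters in WT (blue) and Nr2e3-/- (red) libraries, with black lines for the mean and SD (n = 3). The groups do not overlap in any of the 8 panels, with Cyp2c70 and Slc10a2 higher and the ABC transporters lower in Nr2e3-/- libraries.

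Among 18 other regulators, of which 15 were tested, 4 were higher and 3 lower at an unadjusted p-value under 0.05. Prox1, a corepressor that acts on Cyp7a1, had 43.4, 54.9 and 54.2 CPM in WT and 80.4, 79.0 and 137 CPM in Nr2e3-/- libraries, a log2 fold change of 0.96 with a standard error of 0.23 (edgeR, adjusted p = 0.113). DESeq2 (adjusted p = 0.00622), limma-voom (adjusted p = 0.0180) and edgeR without Nr2e3-/- replicate 1 (adjusted p = 0.0218) called it. Its exons overlap those of Prox1os. Mafg, a repressor of bile acid synthesis genes, had a log2 fold change of -0.42 (unadjusted p = 0.0227 from edgeR). Limma-voom (adjusted p = 0.0276) and edgeR without Nr2e3-/- replicate 1 (adjusted p = 0.0159) called it lower, and DESeq2 did not. Named after their values were seen, Fgfr4 and its coreceptor Klb, which receive the intestinal signal Fgf15, had log2 fold changes of 0.08 and -0.64 (Klb without Nr2e3-/- replicate 1, adjusted p = 0.0486 from edgeR), and Fgf15 itself had 0 counts in all libraries. Among 8 detoxifying enzymes, all tested, 2 were higher and 0 lower at an unadjusted p-value under 0.05. These were the estrogen sulfotransferase Sult1e1, at 0.169 to 0.277 CPM in WT and 1.52 to 5.61 CPM in Nr2e3-/- libraries, and the glucuronosyltransferase Ugt2b1 (log2 fold change 0.80). DESeq2 and limma-voom called both, and edgeR without Nr2e3-/- replicate 1 gave an adjusted p = 0.00193 for Sult1e1 and 0.0203 for Ugt2b1. Sult1e1 had only 6, 5 and 8 counts in WT libraries, against 23, 151 and 61 in Nr2e3-/- ones. It passed the filter on low counts only through the group where it was higher, so its calls are no separate support. The third by p-value was Ugt1a1 (-0.28, unadjusted p = 0.0584), whose exons are shared with other Ugt1a genes. Cyp3a11, which hydroxylates bile acids for removal and was named after its values were seen, had a log2 fold change of -0.45 with overlapping groups.

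Markers of other cell types were read in the same libraries. All 8 macrophage markers had a positive log2 fold change, from 0.09 to 0.69, and 0 had an unadjusted p-value under 0.05, with a summed level of 305 to 388 CPM in WT and 265, 685 and 348 CPM in Nr2e3-/- replicates 1, 2 and 3. Among 7 neutrophil and lymphocyte markers tested, 2 were higher and 2 lower at that threshold. The 2 lower ones were Cd79a (11 to 15 counts in WT, 3 to 5 in Nr2e3-/- libraries) and Ms4a1 (16 to 25 and 2 to 8). Both were near the floor and passed the filter through the WT group, so their calls are no separate support. Among 6 endothelial markers 1 was higher and 1 lower, and among 8 stellate and stromal markers 0 passed. Of all genes tested, 11.8% were higher and 9.72% lower at that threshold. Of 8 ileal and pancreatic markers, 5 had 0 counts in all libraries and only Vil1 was tested, at a log2 fold change of -2.09.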

How the data were processed

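Liver tumor RNA of 3 WT and 3 Nr2e3-/- mice was analysed from the table of raw counts that the authors deposited. The authors aligned single-end TruSeq reads with TopHat (mm10 for mouse) and counted them with featureCounts, and their processing notes also list Bowtie2 and SAMtools. Annotation and strand setting are not given in the sources used here. The authors' normalized table and their comparison table, which holds fold changes and p-values, were not used. Samples were grouped by title. The 10 genes and the lists were chosen with earlier results of these data known.

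Counts were filtered with filterByExpr (minimum count 10, total 15), scaled by TMM and compared by edgeR 4.0.16 in R 4.3.3 (glmQLFit and glmQLFTest, two-sided), with p-values adjusted by Benjamini-Hochberg over all genes tested. Normalized CPM are counts scaled by the TMM-adjusted library total. Standard errors were taken as the log2 fold change over the root of F, and 95% intervals from the t distribution of the same fit. Alternatives were RLE and upper quartile scaling, DESeq2 1.42.0, limma-voom (limma 3.58.1), other filters, a replicate block and leaving out each library. The fits were tested on simulated data. Other genes of each list were named if they had an adjusted p under 0.05 or, if none had, as the 3 with the smallest p, except 1 regulator that is not reported here. Positions came from RefSeq GRCm38, and Adgre1 and Sult2a8 were matched by older symbols. Intervals and limits cover counting and replicate error only.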

Additional observations from a re-analysis of the deposited data

How the results depend on the processing

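The log2 fold changes of the 10 genes were recomputed under 13 alternatives, which gives 130 values, of which 118 kept their direction and stayed on the same side of an adjusted p-value of 0.05, 7 kept their direction and passed it (4 of Cyp7b1, 2 of Cyp8b1 and 1 of Cyp7a1) and 5 reversed. All 5 were of Slc10a1, with -0.057 under upper quartile scaling, -0.008 with the replicate block, -0.04 without WT replicate 2, -0.15 without Nr2e3-/- replicate 1 and -0.01 without Nr2e3-/- replicate 3, and its range over the left-out libraries was -0.15 to 0.21. The number of the 10 genes called at an adjusted p-value was 1 with DESeq2 (8.07% of all genes), 3 with limma-voom (17.4%) and 1 without the filter on low counts (0.372%). When a library was left out it was between 0 and 2, the 2 being without Nr2e3-/- replicate 1 (21.8% of all genes). At an unadjusted p-value it was 2 with DESeq2, 4 with limma-voom and 2 without the filter, and between 1 and 4 when a library was left out, the 4 being without Nr2e3-/- replicate 2. Over all genes the shares in these fits were 22.2%, 36.7%, 17.1% and, for the left-out libraries, 12.2% to 37.7% (19.0% without Nr2e3-/- replicate 2). The number of genes whose groups do not overlap was between 1 and 5 when a library was left out, the 5 again without Nr2e3-/- replicate 2, where 19.9% of all genes were higher without overlap, and the smaller groups then overlap less by construction (30.8% to 54.9% of all genes in either direction, against 26.8% with all libraries). Upper quartile scaling left 9.56% of all genes higher without overlap, against 13.9%. The number of genes whose groups do not overlap has no value of its own under limma-voom or the replicate block. Of the 52 other pathway genes, between 11 and 29 had an unadjusted p-value under 0.05 when a library was left out. The log2 ratio of Cyp8b1 to Cyp7a1 differed by between -0.26 and 0.78 when a library was left out, and was reversed (-0.26) without Nr2e3-/- replicate 3. Among all genes tested, the number with an adjusted p-value under 0.05 was 13 in edgeR, 8 with upper quartile scaling, 1095 with DESeq2, 2360 with limma-voom, 70 without the filter and 7 with at least 10 counts required in every library, and between 0 and 3022 when a library was left out. The cause of these differences was not tested.

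Replicate numbers are shared by the genotypes, but deviations from the group means correlated at -0.08, 0.22 and 0.02 over genes for the 3 equal numbers, so the numbers were not taken as pairs. With the replicate block, 0 of the 10 genes had an adjusted and 1 an unadjusted p-value under 0.05, as without it, and 0 genes of all 13572 had an adjusted one, against 13. The fewest counts of any of the 10 genes in a library were 136, for Nr0b2.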
